A study of Mus musculus with 16 samples.

Results

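The hearts described here came from mice with a conditional knockout of Zbtb17, labelled cKO, that had transverse aortic constriction (TAC) or a sham operation. TAC ties the aortic arch narrow, so that the left ventricle pumps against a raised pressure. The comparison took the 4 arrays titled cKO TAC and the 4 titled cKO sham, 8 of the 16 arrays of the study. The other 8 arrays, 4 control TAC and 4 control sham, were used to estimate the spread and to test whether the TAC effect differed between genotypes. All mice were male and on a C57BL/6 background, were 8 to 10 weeks old before surgery, and were operated on 4 weeks before the hearts were taken. Each array held total RNA of 1 heart, and the tissue was labelled only as heart, with no chamber named. The Cre driver, the part of Zbtb17 that is deleted and the genotype of the control mice are not given in the sources used here. Of 35556 probe sets, 21333 passed a filter on the mean log2 value over the 16 arrays, and 13670 genes were represented by their brightest probe set that names 1 gene.

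Zbtb17 encodes Miz1, a zinc finger transcription factor that activates genes such as cell cycle inhibitors and that turns into a repressor when bound to Myc. A pressure-loaded left ventricle thickens. Its cardiomyocytes re-express fetal genes such as Nppa, Nppb, Acta1 and Myh7, fibroblasts deposit matrix, macrophages gather, and genes of fatty acid oxidation and of mitochondria often decline.

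Zbtb17 itself did not separate the groups. It read 6.47, 6.49, 6.52 and 6.52 on the log2 scale in the cKO TAC arrays 1 to 4, and 6.51, 6.62, 6.47 and 6.49 in the cKO sham arrays. Control hearts ranged from 6.19 to 6.56, so the arrays labelled cKO were not lower than those labelled control. The probe set may lie outside the deleted part, in which case its level checks nothing about the genotype, and cKO is used below as the label gives it. The fitted log2 difference after TAC, TAC minus sham, was -0.02 ± 0.08 (standard error of the fit, as for every ± after a difference below, n = 4 per group). Of 26 genes of the Myc and Miz1 network, all measured, 12 had a difference above 0 and 14 below 0, with a median of -0.01. The sign of that median depended on single arrays: it was 0.01 without cKO TAC array 2, 0.02 without cKO sham array 1, 0.03 without cKO sham array 3 and just above 0 without cKO TAC array 4.

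The 8 cKO arrays were alike as a whole, with medians of 4.85 to 4.91 and Spearman correlations of 0.981 to 0.987 between arrays. Cardiomyocyte markers were present in all of them, and Myl2, the ventricular myosin light chain, read 12.55 to 12.89. Some arrays stood apart within their group. Myl7, the atrial myosin light chain, read 6.07, 8.83, 4.69 and 4.33 in cKO TAC arrays 1 to 4, and 4.86, 8.46, 4.63 and 5.20 in cKO sham arrays 1 to 4. The mean of 18 measured atrial markers (of 21 listed) ran from 6.86 to 7.84 in the TAC arrays and from 6.89 to 7.65 in the sham arrays, highest in replicate 2 of each group. Atf3, an immediate early stress gene, read 9.58, 7.26, 6.28 and 6.69 in the sham arrays against 6.16 to 6.48 in the TAC arrays. Of other cell types, 5 of 20 lymphocyte markers and 2 of 9 red blood cell markers passed the filter. In whole heart tissue, fewer cells of a type and less RNA per cell cannot be told apart.

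No gene passed the test for TAC against sham in cKO hearts. With limma and Benjamini-Hochberg adjustment over 21333 probe sets, 0 probe sets (0.0%) had an adjusted p under 0.05, and the smallest adjusted p was 0.595. By unadjusted p under 0.05, 1447 probe sets (6.78%) differed. Among the 13670 genes, 278 (2.03%) had all 4 TAC arrays above all 4 sham arrays, and 296 (2.17%) had all 4 below. Differences were small: 137 genes (1.0%) were over 0.5 higher on the log2 scale and 37 (0.271%) over 0.5 lower. In control hearts limma also called 0 probe sets (0.0%), with 1774 (8.32%) under an unadjusted p of 0.05, and there 359 genes (2.63%) had TAC above sham with no overlap and 168 (1.23%) below. The values that follow therefore describe 4 hearts against 4, and no single gene named below passed the adjusted test.

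Among genes whose TAC and sham arrays did not overlap, the smallest p on the higher side belonged to Olfr1396, Tspan4, Gsta3 and Rapgef5. Olfr1396, annotated as an olfactory receptor gene, read 6.77, 6.44, 5.90 and 5.76 after TAC and 5.08, 5.0, 5.42 and 4.90 after sham, a difference of 1.12 ± 0.23 (limma adjusted p 0.595). Tspan4, a tetraspanin of the cell surface, read 8.82, 9.11, 8.98 and 8.77 after TAC and 8.15, 8.42, 8.24 and 8.13 after sham, a difference of 0.69 ± 0.14 (limma adjusted p 0.595). The lowest TAC array of either gene stood clear of its highest sham array. Gsta3, a glutathione S-transferase, differed by 0.48 ± 0.10, Rapgef5, an activator of the GTPase Rap, by 0.40 ± 0.09, and the transcription factor gene Ebf1 by 0.46 ± 0.11. Ckb, the brain-type creatine kinase, read 9.17, 9.55, 9.21 and 9.21 after TAC against 8.69, 9.03, 8.89 and 8.96 after sham. Cd37, a tetraspanin of leukocytes, and H2-Q5, of the class I major histocompatibility family, were higher by 0.45 ± 0.11 and 0.48 ± 0.12.

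The TAC effect on Tspan4 was -0.03 ± 0.14 in control hearts, and the difference between genotypes was 0.71 ± 0.20 (limma unadjusted p 0.00265, adjusted p 1.0). Control TAC array 2 read 9.02 for Tspan4, as high as cKO TAC hearts, while the other control TAC arrays lay between 8.27 and 8.56. Control sham arrays read 8.35 to 8.71 for Tspan4, with a mean of 8.57. The cKO sham mean was lower, at 8.235, so the sham level also enters this difference between genotypes. Rapgef5 also differed by genotype at the unadjusted level, with -0.03 ± 0.09 in control hearts, whereas Olfr1396 was 0.77 ± 0.23 higher after TAC in controls. Those differences between genotypes were not past the adjusted threshold.

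On the lower side, Polr3d, a subunit of RNA polymerase III, had the smallest p. It read 6.42, 6.62, 6.63 and 6.57 after TAC and 7.01, 6.95, 6.84 and 6.90 after sham, a difference of -0.36 ± 0.07 (limma adjusted p 0.595), against -0.04 ± 0.07 in control hearts. Epha4, a receptor for ephrins, read 7.06, 6.83, 7.52 and 7.50 after TAC and 7.92, 8.23, 7.72 and 7.98 after sham, a difference of -0.73 ± 0.16. Both genes had every TAC array below every sham array. Hnrnpm, a splicing regulator, was -0.30 ± 0.07 and Xpo1, the main nuclear export receptor, -0.33 ± 0.07, and both were also lower in control hearts (-0.17 ± 0.07 and -0.28 ± 0.07). Rbm5, another splicing factor, was -0.38 ± 0.10 in cKO and -0.41 ± 0.10 in control hearts. Tnks2, the poly-ADP-ribosylating enzyme tankyrase 2, and Ate1, which adds arginine to protein ends, were each at -0.28 ± 0.07. Crip2, a LIM domain protein, read 10.52 to 11.18 after TAC and 11.32 to 11.47 after sham. The glutathione S-transferase Gstm2 was at -0.34 ± 0.08, so the 2 glutathione transferases in this group, Gsta3 and Gstm2, lay on opposite sides of 0.

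By size, the leading genes with an unadjusted p under 0.05 were Abhd1, Hsd17b7, C4b, Olfr1396, Apod, Col8a1, Ccn5 and Per3 on the higher side. Abhd1, a predicted hydrolase, read 7.02, 6.61, 5.24 and 7.29 after TAC and 4.97 to 5.40 after sham, so TAC array 3 lay within the sham range. Hsd17b7, an enzyme of cholesterol synthesis, read 6.62 to 7.71 after TAC and 5.17, 7.10, 5.49 and 5.35 after sham, where sham array 2 lay within the TAC range. These 2 genes varied as widely in control hearts, with Abhd1 between 4.97 and 7.17 and Hsd17b7 between 5.24 and 7.43. Apod, a lipid carrier of the lipocalin family, read 8.47, 8.95, 6.65 and 6.91 after TAC and 6.42 to 7.34 after sham, high only in TAC arrays 1 and 2. On the lower side, Fabp7, a fatty acid binding protein, read 4.52, 4.90, 4.76 and 4.84 after TAC and 5.59, 6.11, 5.35 and 6.11 after sham, a difference of -1.03 ± 0.28 without overlap. Cenpf, a kinetochore protein of dividing cells, was at -0.79 ± 0.33, with 5.08 and 5.03 in TAC arrays 1 and 2 against 6.2 to 6.94 in the sham arrays. TAC arrays 3 and 4 read 6.73 and 6.24 for Cenpf, within the sham range. Slc41a3, a magnesium transporter, was at -0.71 ± 0.23 without overlap, and Cd28, a costimulatory receptor of T cells, at -0.58 ± 0.15 without overlap. Levels under 5, as for Fabp7, lie near the filter of 4.37.

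Load genes differed between the TAC hearts more than between the groups. Acta1, the skeletal alpha-actin of the fetal programme, read 12.65, 12.57, 10.79 and 10.75 after TAC and 10.02, 10.71, 11.55 and 9.83 after sham. TAC arrays 1 and 2 stood above every sham array, and TAC arrays 3 and 4 lay inside the sham range, for a difference of 1.16 ± 0.58 (limma adjusted p 0.731). Nppa, the atrial natriuretic peptide, read 12.33, 13.27, 12.41 and 11.48 after TAC and 11.79, 11.89, 12.26 and 11.63 after sham, a difference of 0.48 ± 0.49. TAC array 4 held the lowest Nppa of all 8 hearts. Nppb, the B-type natriuretic peptide, read 11.62, 12.06, 11.12 and 10.33 after TAC and 11.85, 11.15, 11.24 and 11.14 after sham, so its difference was -0.06 ± 0.41. That value ran from -0.32 without cKO TAC array 2 to 0.26 without cKO TAC array 4 when 1 array was left out. Myh7, the slow beta-myosin heavy chain, overlapped as well, with 9.94 to 11.06 after TAC and 9.35 to 11.40 after sham, and its counterpart Myh6 was at -0.17 ± 0.11.

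Of 28 listed load genes 26 were measured, and 15 of them had a difference above 0, against 51.0% of all genes. None was without overlap, and the median was 0.04, against 0.00 over all genes. Ace, angiotensin-converting enzyme, read 8.98, 9.49, 8.50 and 8.24 after TAC and 8.08 to 8.33 after sham, a difference of 0.61 ± 0.25. Fhl1, a LIM protein of the stretch-sensing apparatus, was at 0.44 ± 0.20, and Rcan1, a target and inhibitor of calcineurin, at -0.41 ± 0.39, with 10.55 in sham array 1. Ankrd1, a stretch-responsive titin-binding protein, was at 0.20 ± 0.20. The median of the list depended on single arrays: it was 0.19 without cKO TAC array 4, 0.11 without cKO sham array 1 and -0.01 without cKO sham array 3, and it lay at 0.00 without cKO TAC array 2, 0.07 without cKO TAC array 3 and 0.02 without cKO sham array 4.

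Genes of fibroblasts and of the matrix were mostly higher after TAC, again led by TAC arrays 1 and 2. Postn, a matricellular protein of activated fibroblasts, read 9.70, 11.58, 8.67 and 8.21 after TAC and 7.90, 9.0, 8.31 and 7.90 after sham. The values of TAC arrays 3 and 4 lay between those of the sham hearts, and the difference was 1.26 ± 0.64 (limma adjusted p 0.731). Col8a1, a short-chain collagen, read 8.54, 9.37, 7.47 and 7.23 after TAC and 7.18, 7.68, 7.03 and 7.04 after sham. Ccn5, a matricellular antagonist of Ccn2, read 7.64, 8.74, 6.85 and 6.64 after TAC and 6.00, 6.72, 6.96 and 6.68 after sham. Each of these genes had TAC arrays 1 and 2 above all sham arrays, and TAC arrays 3 and 4 among them.

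**Figure D1:**
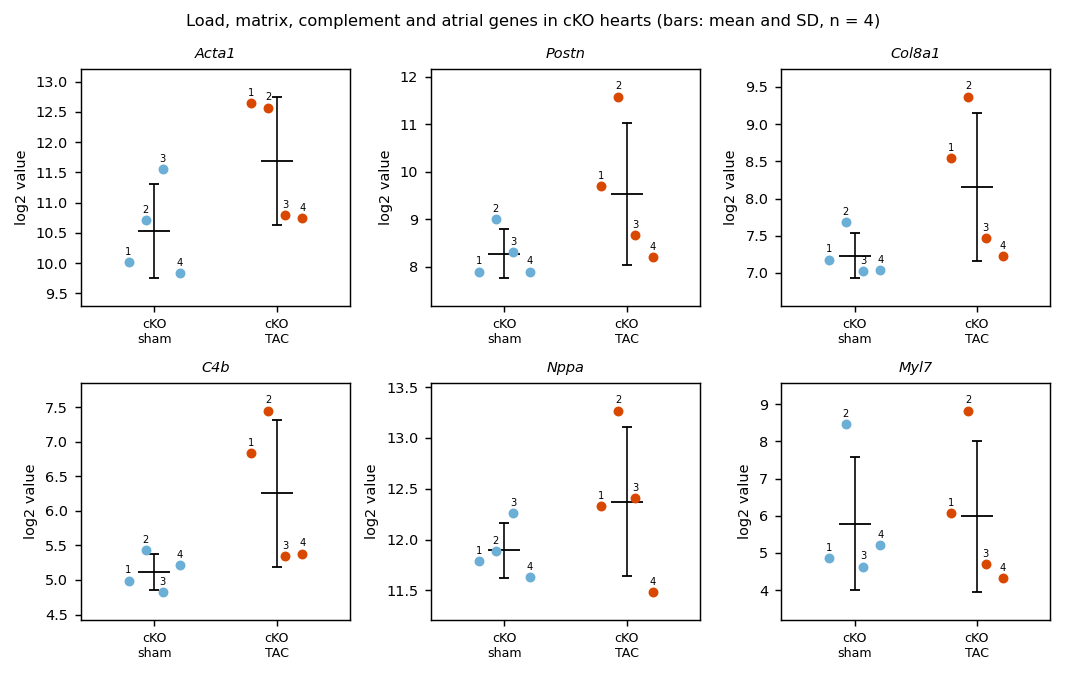
Log2 values of Acta1, Postn, Col8a1, C4b, Nppa and Myl7 in each cKO heart, with replicate numbers and with bars for mean and SD of 4 hearts per group. TAC hearts 1 and 2 are highest for Acta1, Postn, Col8a1 and C4b, hearts 3 and 4 lie near the sham hearts, and Myl7 is highest in replicate 2 of both groups.

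All 24 listed collagen chains were measured, and 19 had a difference above 0, against 51.0% of all genes, with a median of 0.17 and none without overlap. The fibril-forming Col1a1 and Col3a1 were at 0.37 ± 0.25 and 0.41 ± 0.20, Col14a1 at 0.73 ± 0.32 and Col6a2 at 0.38 ± 0.16, while Col4a1 and Col4a2 of the basement membrane were at -0.08 and -0.10. Of 34 matricellular and glycoprotein genes (38 listed) 28 were above 0, with a median of 0.30, and 1 did not overlap, near the 2.03% of all genes: Tnxb, a tenascin, at 0.30 ± 0.11. Fbln2 and Fbln1, the fibulins, were each at 0.55. Of 17 proteoglycan genes (18 listed) 13 were above 0, with a median of 0.21. Podn, a small leucine-rich proteoglycan, read 6.80, 7.17, 6.91 and 6.89 after TAC and 6.60, 6.44, 6.53 and 6.17 after sham, a difference of 0.51 ± 0.16, and here hearts 3 and 4 stood with hearts 1 and 2. Srgn, the proteoglycan of leukocyte granules, was the other of the 2 proteoglycan genes without overlap (0.27 ± 0.11), against 2.03% of all genes.

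Fibroblast markers followed, with 24 of 26 measured genes (27 listed) above 0, against 51.0% of all genes, and a median of 0.26. This list shares members with the lists above, such as Col1a1 and Col3a1 with the collagens and Lum with the proteoglycans. Pi16, a marker of a fibroblast subset, read 7.44, 8.22, 6.78 and 6.68 after TAC and 6.53 to 6.62 after sham (0.71 ± 0.26). It was the 1 marker of 26 without overlap, against 2.03% of all genes. Lum was at 0.72 ± 0.28, Abca8a at 0.44 ± 0.16, Ddr2, a collagen receptor, at 0.34 ± 0.14, and Vim at 0.47 ± 0.21. Without cKO TAC array 2, whose atrial markers were the highest of the TAC arrays, the medians were 0.04 for collagens, 0.11 for the matricellular list, 0.07 for proteoglycans and 0.11 for fibroblast markers. The collagen median was 0.11 without cKO sham array 3, and the proteoglycan median 0.33 without cKO TAC array 3. Among cKO hearts, the arrays with Myl7 above 6 were TAC arrays 1 and 2 (6.07 and 8.83) and sham array 2 (8.46). Leaving them out therefore also removed the TAC hearts that led these genes. Without the arrays with Myl7 above 6, the matricellular median was 0.07 and the fibroblast median 0.10, with 20 of 26 fibroblast markers still above 0. The part that atrial tissue has in these values was not tested. In control hearts the medians were 0.10, 0.19, 0.09 and 0.24 in the same order, and 0 collagen and 1 fibroblast gene had an unadjusted interaction p under 0.05, against 3.0% of all genes.

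Interferon-induced genes were nearly all higher after TAC. Of 49 listed genes 39 were measured, and 37 of them (94.9%) had a difference above 0, against 51.0% of all genes. In 8 of the 39, every TAC array was above every sham array, against 2.03% of all genes, and the median was 0.23. Oas1a, which makes the activator of RNase L, read 5.13, 5.39, 4.88 and 5.26 after TAC and 4.76, 4.78, 4.55 and 4.11 after sham, a difference of 0.61 ± 0.16 (limma adjusted p 0.668). Ifit3, an antiviral protein with tetratricopeptide repeats, read 7.62, 8.29, 7.05 and 7.03 after TAC and 6.55, 6.48, 6.91 and 6.80 after sham, a difference of 0.81 ± 0.27 (limma adjusted p 0.685). Oas1a was above 5 in TAC hearts 1, 2 and 4. The sham levels of Oas1a lay near the filter of 4.37, with sham array 4 below it at 4.11. Its difference is therefore less certain than that of a brighter gene. Ifit3 was highest in hearts 1 and 2 and only just above sham in hearts 3 and 4. Its relative Ifit2 was at 0.52 ± 0.14 without overlap. Of the membrane-bound entry inhibitors, Ifitm1 was at 0.44 ± 0.13 without overlap and Ifitm3 at 0.48 ± 0.19 with overlap. Irf7, the transcription factor that amplifies the response, was at 0.44, Usp18, which restrains it, at 0.42, and Ifih1, a sensor of viral RNA, at 0.23, all 3 without overlap. The remaining gene without overlap was Trim21, an antibody receptor in the cytosol, at 0.18.

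The count above 0 stayed between 33 and 37 when each cKO array in turn was left out, and the median between 0.17 and 0.29. Without the arrays with Myl7 above 6 it was 28 of 39, with a median of 0.10. In control hearts 34 of 39 genes were above 0, against 56.7% of all genes there, with a median of 0.12, and 0 of 39 genes had an unadjusted interaction p under 0.05. Oas1a was at 0.12 ± 0.16 in control hearts (limma unadjusted interaction p 0.0506, adjusted p 1.0).

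Promoters of 2 of these genes are shown because they carry the interferon-stimulated response element, the sequence that the interferon-activated factor ISGF3 binds. The element was searched as GAAA, any 2 bases and GAAA, on both strands, in the 250 bases before the start site, from RefSeq promoters of GRCm38.p6. It was found in 10 of the 30 interferon genes with a promoter entry (33.3%), against 2.95% of 10865 measured genes and 2.98% of all 32851 promoters. Capitals mark the matches, which overlap each other in Oas1a. The Ifit3 window lies at chr19:34583279-34583528 on the plus strand, and the Oas1a window at chr5:120907526-120907775 on the minus strand.
Ifit3: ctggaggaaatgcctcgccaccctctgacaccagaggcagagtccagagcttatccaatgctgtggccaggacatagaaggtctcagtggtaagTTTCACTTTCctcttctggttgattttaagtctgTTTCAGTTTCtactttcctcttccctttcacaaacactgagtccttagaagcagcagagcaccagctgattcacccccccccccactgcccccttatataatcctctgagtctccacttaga
Oas1a: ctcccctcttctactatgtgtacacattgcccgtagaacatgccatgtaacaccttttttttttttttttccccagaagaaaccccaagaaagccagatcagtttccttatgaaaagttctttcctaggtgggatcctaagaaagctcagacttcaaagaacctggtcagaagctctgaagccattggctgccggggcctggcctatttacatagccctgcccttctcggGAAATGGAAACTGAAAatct
The first bases of the matches lie at -156 and -122 from the start site of Ifit3 and at -20 and -14 in Oas1a. Ifit2, which had no overlap on the arrays either, held no match in this window. A match is a description of the letters, and binding was not measured.

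Antigen presentation genes also lay higher after TAC, and here all 4 hearts contributed. Of 16 measured genes (20 listed) 13 were above 0 and 5 did not overlap on the higher side, against 51.0% and 2.03% of all genes, with a median of 0.20. H2-Aa, a chain of the class II complex, read 7.41, 6.86, 6.70 and 7.10 after TAC and 6.42, 6.26, 5.96 and 6.47 after sham, a difference of 0.74 ± 0.29. Its partner H2-Ab1 read 7.66, 7.50, 7.01 and 7.30 after TAC and 6.70, 6.62, 6.48 and 6.90 after sham, a difference of 0.69 ± 0.29. In both genes TAC array 1 was highest and TAC array 3 lowest among the TAC hearts, all above the sham hearts. Cd74, the invariant chain, was at 0.60 ± 0.27 with overlap, and B2m, the light chain of class I, at 0.34 ± 0.16 without. Probes of H2 genes can bind near-identical family members, so H2-Q5 and H2-Aa are uncertain as single genes. In control hearts H2-Aa was at 0.56 ± 0.29 and H2-Ab1 at 0.57 ± 0.29, with a list median of 0.16. Without cKO sham array 1 the list median in cKO hearts was 0.13.

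Macrophage markers had the highest median of the lists described, 0.32, with 27 of 28 measured genes (31 listed) above 0, against 51.0% of all genes, and 2 without overlap, against 2.03%. Cd68, a lysosomal protein of macrophages, read 6.66, 7.46, 6.50 and 6.44 after TAC and 6.35, 6.08, 6.11 and 6.16 after sham, without overlap (0.59 ± 0.21). C1qa, a chain of the first complement component that macrophages make, read 7.26, 7.72, 7.0 and 7.05 after TAC and 6.95, 6.56, 6.66 and 6.81 after sham, also without overlap (0.51 ± 0.18). TAC array 2 was the highest for both genes. Without it the list median was 0.19 with 25 genes above 0, and without the arrays with Myl7 above 6 it was 0.06 with 18 above 0. Laptm5 and Ms4a7 were at 0.45 ± 0.19 and 0.59 ± 0.26. Control hearts had a median of 0.23, and 0 of the 28 genes had an unadjusted interaction p under 0.05.

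Of 16 complement genes (24 listed) 15 were above 0, against 51.0% of all genes, with a median of 0.23 in cKO and 0.30 in control hearts. C4b, the fourth component, read 6.84, 7.45, 5.34 and 5.38 after TAC and 4.99, 5.43, 4.82 and 5.22 after sham, a difference of 1.14 ± 0.36 (limma adjusted p 0.668). It was high in TAC arrays 1 and 2, while the other two overlapped the sham range. C3ar1, a receptor for a complement fragment, was at 0.59 ± 0.23, and Serping1, the inhibitor of the first component, at 0.47 ± 0.21. Without cKO TAC array 2 the complement median was 0.10, with 12 genes above 0.

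**Figure D2:**
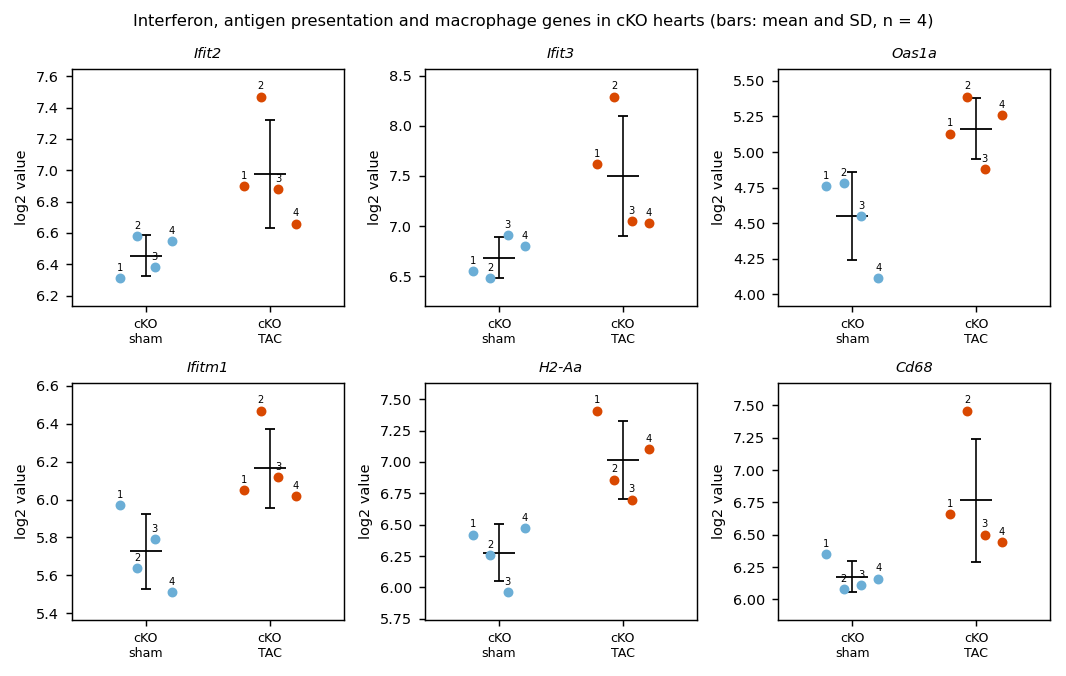
Log2 values of Ifit2, Ifit3, Oas1a, Ifitm1, H2-Aa and Cd68 in each cKO heart, with replicate numbers and with bars for mean and SD of 4 hearts per group. All 6 are genes without overlap, and list members with overlap, such as Ifitm3 and Cd74, are not shown. In each of the 6 genes every TAC heart therefore lies above every sham heart, by least in Ifitm1, where TAC heart 4 read 6.02 and sham heart 1 read 5.97.

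Of the lists described, the clock list had the highest share of genes with an unadjusted p under 0.05 for a difference of the TAC effect between genotypes. The circadian clock runs on a loop in which Arntl and Clock activate Per and Cry genes, whose proteins feed back on them, with Dbp, Tef and Hlf as output factors. Arntl, the activator, read 5.84, 5.55, 5.41 and 5.05 after TAC and 6.51, 6.05, 6.21 and 6.86 after sham in cKO hearts, a difference of -0.94 ± 0.33 (limma adjusted p 0.726). Clock, its partner, read 8.29, 8.23, 8.10 and 8.02 after TAC and 8.58, 8.59, 8.47 and 8.61 after sham, a difference of -0.40 ± 0.11 (limma adjusted p 0.668). For both activators every TAC heart lay below every sham heart. The repressor gene Per3 read 6.94, 6.68, 7.05 and 7.06 after TAC and 5.60, 6.33, 6.56 and 5.75 after sham, a difference of 0.87 ± 0.27 (limma adjusted p 0.668). Per2 read 6.99, 6.94, 7.09 and 7.08 after TAC and 6.80, 6.51, 6.23 and 5.94 after sham, a difference of 0.66 ± 0.24 (limma adjusted p 0.726). Both repressor genes lay higher in every TAC heart, with the TAC hearts close together and the sham hearts spread.

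Among output genes, Tef read 7.71, 7.73, 7.91 and 7.84 after TAC and 7.22, 7.35, 7.43 and 7.05 after sham, without overlap (0.54 ± 0.17). Dbp read 8.54, 8.58, 8.61 and 8.40 after TAC and 7.37, 8.42, 8.09 and 7.28 after sham, where sham array 2 lay within the TAC range (0.74 ± 0.32). Hlf was at 0.34 ± 0.15, Ciart, another repressor, at 0.78 ± 0.48, Bhlhe41 at 0.48 ± 0.23 and Cry1 at 0.19 ± 0.09. Nr1d2, a repressor of Arntl, was at 0.32 ± 0.17 while its relative Nr1d1 was at -0.20. Of 20 measured clock genes (22 listed) 15 were above 0 (against 51.0% of all genes), 3 were higher and 2 lower without overlap (against 2.03% and 2.17%), and the median was 0.21.

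In control hearts 1 of the 20 clock genes was above 0 after TAC, against 56.7% of all genes there, with a median of -0.18. The difference of the TAC effect between genotypes had an unadjusted p under 0.05 for 9 of the 20, against 3.0% of all genes, and for 0 probe sets (0.0%) an adjusted p under 0.05. Per2 was at -0.60 ± 0.24 in control hearts, and its difference between genotypes was 1.25 ± 0.34 (limma unadjusted p 0.00228, adjusted p 1.0). For Arntl that difference was -1.27 ± 0.47 (limma unadjusted p 0.0159, adjusted p 1.0) and for Per3 1.13 ± 0.38 (limma unadjusted p 0.00947, adjusted p 1.0). Dbp, Tef, Hlf, Nr1d2, Ciart and Clock were the others of the 9. Control sham means of Per2 and Dbp were 6.96 and 8.50, near those of cKO TAC hearts (7.025 and 8.53). The cKO sham means of these genes were lower, at 6.37 and 7.79. For Arntl, Per3 and Tef, control sham means (5.87, 6.64 and 7.53) lay between those of cKO TAC and cKO sham hearts. Control TAC hearts were spread. Arntl read 6.80, 5.0, 6.15 and 6.81 there, and Dbp 7.33, 9.0, 8.13 and 7.40, so control TAC array 2 lay with the cKO TAC hearts and the other arrays with the cKO sham hearts. The labels give no time of day at which hearts were taken. Fabp7 and Tspan4 followed the same arrays, with 4.46 and 9.02 in control TAC array 2, against 5.43 to 6.12 and 8.27 to 8.56 in the other control TAC hearts.

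Leaving out each cKO array in turn gave 14 to 17 clock genes above 0 and medians of 0.17 to 0.30. Without the arrays with Myl7 above 6, 14 of 20 were above 0 with a median of 0.36. With sham arrays of Atf3 above 8 left out instead, 16 of 20 were above 0, with a median of 0.20.

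**Figure D3:**
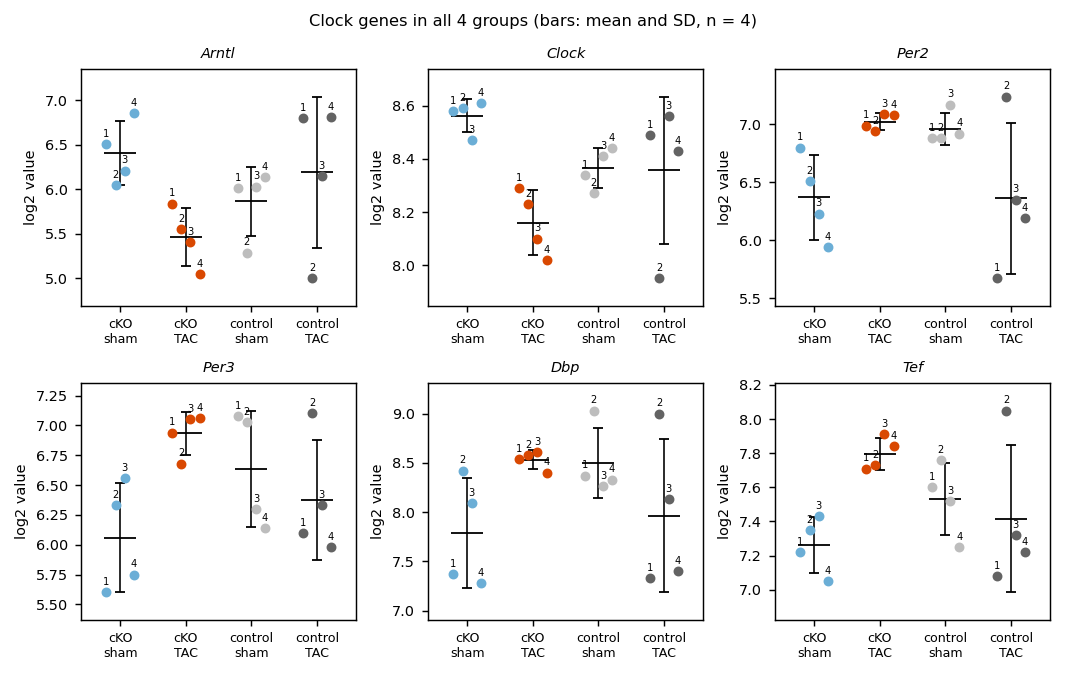
Log2 values of Arntl, Clock, Per2, Per3, Dbp and Tef in each heart of the 4 groups, with replicate numbers and with bars for mean and SD of 4 hearts. The 4 cKO TAC hearts lie together, below the cKO sham hearts for Arntl and Clock and mostly above them for the other genes. Control sham hearts are about as high as cKO TAC hearts for Per2 and Dbp. Control TAC heart 2 lies apart from control TAC hearts 1, 3 and 4.

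Promoters of Per3 and Tef are shown because both genes lay without overlap and hold clock elements. The E-box CACGTG, which Clock and Arntl bind, was found in 5 of 17 clock genes with a promoter entry (29.4%), against 9.6% of measured genes and 6.02% of all promoters. The D-box, searched as TTATGTAA or TTACGTAA and bound by Dbp, Tef and Hlf, was found in 1 of 17 (5.88%), against 0.718% and 0.931%. The ROR element, searched as TAGGTCA or TGGGTCA, was found in 1 of 17 (5.88%), against 5.36% and 5.38%. All were searched on both strands in the 250 bases before a start site, from RefSeq promoters of GRCm38.p6. The Per3 window lies at chr4:151044666-151044915 on the minus strand, with D-boxes starting at -205 and -158, and the window of the first Tef start site at chr15:81802423-81802672 on the plus strand, with an E-box at -127. Capitals mark the matches.
Per3: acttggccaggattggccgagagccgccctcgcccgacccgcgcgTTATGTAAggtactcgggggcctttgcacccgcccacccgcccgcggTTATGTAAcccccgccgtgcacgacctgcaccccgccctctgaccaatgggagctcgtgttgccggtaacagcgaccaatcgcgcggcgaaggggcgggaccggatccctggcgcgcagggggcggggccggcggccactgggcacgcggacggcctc
Tef: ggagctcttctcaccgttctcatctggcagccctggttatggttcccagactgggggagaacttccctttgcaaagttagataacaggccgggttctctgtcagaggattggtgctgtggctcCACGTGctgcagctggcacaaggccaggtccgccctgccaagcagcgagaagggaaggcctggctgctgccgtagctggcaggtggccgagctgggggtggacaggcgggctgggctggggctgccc
No E-box, D-box or ROR element of these letters was found in the windows of Arntl, Clock and Dbp.

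Genes of mitochondrial metabolism were mostly lower after TAC in cKO hearts, by small amounts. All 22 measured genes of the citric acid cycle (23 listed) had a difference below 0, against 48.6% of all genes, with a median of -0.15 and 3 without overlap on the lower side, against 2.17%. Sdha, the catalytic subunit of succinate dehydrogenase, read 11.86, 11.63, 12.15 and 12.06 after TAC and 12.22, 12.27, 12.16 and 12.21 after sham, a difference of -0.29 ± 0.11 (limma adjusted p 0.726). Idh3g, a subunit of isocitrate dehydrogenase, read 12.04, 11.88, 12.11 and 12.17 after TAC and 12.22, 12.18, 12.20 and 12.29 after sham, a difference of -0.17 ± 0.07. TAC array 2 held the lowest value of both genes, and TAC arrays 3 and 4 lay just under the sham hearts. Its partner Idh3b was at -0.14 ± 0.06 without overlap, and Fh1, fumarate hydratase, at -0.30 ± 0.11 with overlap. All 24 genes of branched-chain amino acid catabolism were below 0 as well, with a median of -0.14. Mmut, methylmalonyl-CoA mutase, read 8.88, 8.48, 9.16 and 9.14 after TAC and 9.20 to 9.38 after sham, the 1 gene of that list without overlap, against 2.17% of all genes.

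Of 28 regulators of mitochondrial gene expression (31 listed) 26 were below 0, against 48.6% of all genes, with a median of -0.12. Ppara, the nuclear receptor for fatty acids, read 8.50, 7.78, 8.46 and 8.65 after TAC and 8.96, 8.96, 8.80 and 8.58 after sham, a difference of -0.48 ± 0.19. Ppargc1a, a coactivator of mitochondrial genes, read 9.97, 9.59, 10.49 and 10.24 after TAC and 11.29, 10.50, 10.23 and 10.27 after sham, a difference of -0.50 ± 0.23. Both overlapped, and the high sham value of Ppargc1a came from the array with the highest Atf3. Pink1, a kinase that marks damaged mitochondria, was at -0.27 ± 0.11, and Gabpa, an activator of respiratory genes, at -0.26 ± 0.10. Respiratory chain and ATP synthase subunits were less one-sided, with 56 of 77 (80 listed) below 0 and a median of -0.05, which lay between -0.01 without cKO TAC array 2 and -0.09 without cKO sham array 2.

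These values also leaned on cKO TAC array 2. Without it 20 of 22 citric acid cycle genes were below 0 with a median of -0.07, 17 of 24 branched-chain genes with -0.05, and 21 of 28 regulators with -0.07. Without the arrays with Myl7 above 6, which are cKO TAC arrays 1 and 2 and cKO sham array 2 here, the medians were -0.05, -0.07 and -0.07. cKO TAC array 2 also held the highest atrial markers, whose part in these differences was not tested. In control hearts the medians were 0.00, 0.02 and 0.01.

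Fatty acid genes were on opposite sides of 0 in the 2 genotypes. Of 38 measured genes (42 listed) 28 were below 0 in cKO hearts, against 48.6% of all genes, with a median of -0.10, and 36 were above 0 in control hearts, against 56.7% of all genes there, with a median of 0.12. For 7 of the 38 the difference of the TAC effect had an unadjusted p under 0.05, against 3.0% of all genes. Acadm, medium-chain acyl-CoA dehydrogenase, read 11.72 to 12.11 after TAC, lowest in array 2, and 12.15 to 12.23 after sham in cKO hearts, without overlap (-0.22 ± 0.09). It was at 0.05 ± 0.09 in control hearts. Acot1, an acyl-CoA thioesterase, read 4.70, 4.55, 4.83 and 4.86 after TAC and 4.90 to 4.99 after sham in cKO hearts, and was at 0.44 ± 0.14 in control hearts. Its difference between genotypes was -0.66 ± 0.20 (limma unadjusted p 0.00435, adjusted p 1.0). Acot1 has near-identical relatives on the same chromosome, so its probe set may share signal with them. Pdk4, Plin5, Eci2, Cd36 and Fabp3 were the other 5, at -0.41, -0.11, -0.14, -0.10 and 0.04 in cKO and 0.40, 0.46, 0.30, 0.12 and 0.23 in control hearts. The cKO median of the list was 0.02 without cKO TAC array 2, with 18 of 38 below 0, and 0.02 without the arrays with Myl7 above 6, so its direction rested on that heart.

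Stress-response genes were mostly lower after TAC, with sham array 1 the highest. Of 33 immediate early genes, all measured, 23 were below 0, against 48.6% of all genes, with a median of -0.10, and 4 were lower without overlap, against 2.17% of all genes. Jun, a subunit of the factor AP-1, read 8.14, 8.18, 8.18 and 7.97 after TAC and 9.56, 8.98, 8.50 and 8.52 after sham, a difference of -0.77 ± 0.26 (limma adjusted p 0.685). Its partner Fos read 4.57 to 4.85 after TAC and 4.87 to 5.36 after sham (-0.37 ± 0.14). Dusp1, a phosphatase of MAP kinases, read 8.92, 8.97, 8.64 and 8.93 after TAC and 9.46, 9.73, 9.12 and 9.14 after sham, a difference of -0.50 ± 0.15. All 3 genes separated the groups, Fos by least and with TAC levels near the filter of 4.37. The sham hearts with the highest Atf3, 1 and 2, read highest for Jun. Btg2 and Klf4 were at -0.77 ± 0.42 and -0.51 ± 0.21 with overlap.

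Of 31 genes of the unfolded protein response, all measured, 22 were below 0, against 48.6% of all genes, with a median of -0.11 and 2 lower without overlap, against 2.17% of all genes. Hspa5, the main chaperone of the endoplasmic reticulum, read 10.79, 10.76, 10.82 and 10.99 after TAC and 11.57, 11.21, 11.10 and 11.22 after sham, a difference of -0.43 ± 0.13 (limma adjusted p 0.668). Ero1a, which oxidises protein thiols there, read 7.55 to 7.68 after TAC and 7.79 to 7.96 after sham. In both genes sham array 1 was the highest and the other sham hearts still lay above the TAC hearts. Of 27 heat shock chaperones (30 listed) 21 were below 0 and 3 were lower without overlap, against the same 48.6% and 2.17%, with a median of -0.22. Hsph1 read 9.02 in sham array 1 and 6.90 to 8.01 in the other cKO hearts, Dnajb1 was at -0.59 ± 0.28, and Hspa8 and Hspb3 were at -0.22 ± 0.11 and -0.28 ± 0.11 without overlap.

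Without cKO sham array 1 the medians were -0.01 for immediate early genes, -0.01 for the unfolded protein response and -0.12 for heat shock chaperones. Without cKO sham array 3 the first 2 were -0.25 and -0.17, and without cKO TAC array 3 the unfolded protein response was at -0.06. In control hearts the medians were -0.17, -0.12 and -0.17, and the highest Atf3 again lay in sham arrays, 10.18 and 8.45.

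**Figure D4:**
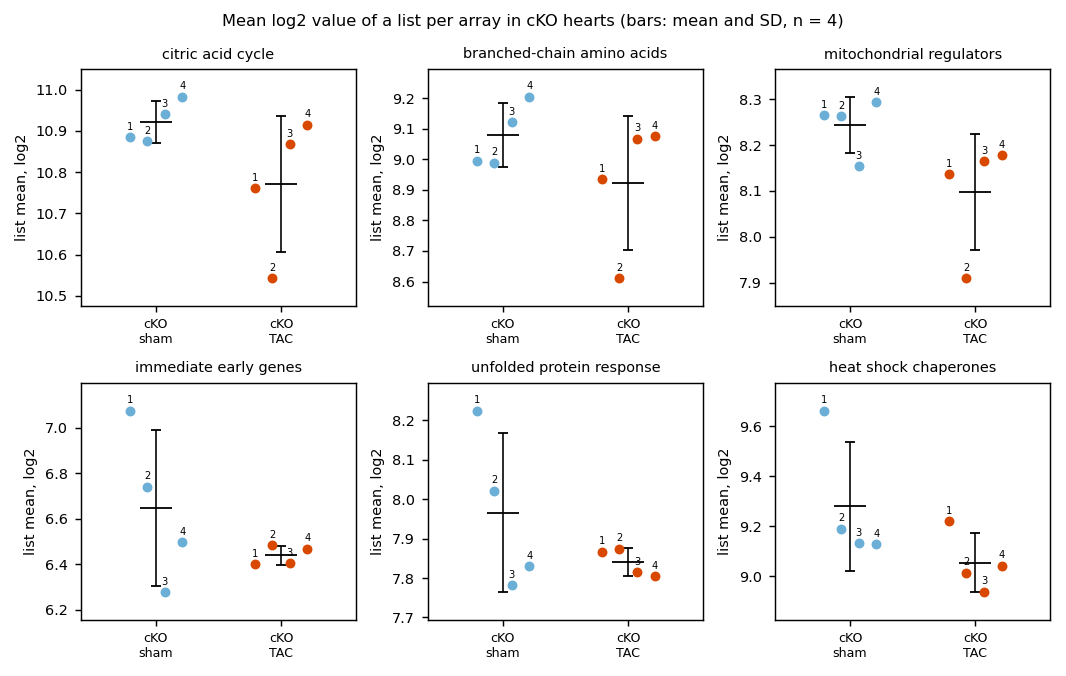
Mean log2 value of 6 gene lists in each cKO heart, with replicate numbers and with bars for mean and SD of 4 hearts per group. TAC heart 2 is lowest for the citric acid cycle, branched-chain amino acid and mitochondrial regulator lists, and sham heart 1 is highest for the 3 stress lists.

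Sarcomere and calcium genes differed little. Of 42 sarcomere and Z-disc genes (43 listed) 30 were below 0, against 48.6% of all genes, with a median of -0.06. Ttn, the giant spring of the sarcomere, read 11.51 to 11.95 after TAC and 11.98 to 12.15 after sham, the 1 gene of the list that did not overlap, against 2.17% of all genes (-0.32 ± 0.13). Nebl and Nexn, of the Z-disc, were at -0.35 ± 0.15 and -0.24 ± 0.10, and Myom2, of the M-band, at -0.42 ± 0.20. Of 30 calcium handling genes (33 listed) 21 were below 0, with a median of -0.09, and 2 were lower without overlap, against 2.17% of all genes. Cacna2d1, an accessory subunit of the L-type calcium channel, read 9.99, 9.94, 10.38 and 10.17 after TAC and 10.54, 10.39, 10.39 and 10.47 after sham, a difference of -0.33 ± 0.11. The pore subunit Cacna1c read 9.25 to 9.79 after TAC and 9.83 to 9.96 after sham. These 2 channel subunits were as low after TAC in control hearts, at -0.34 ± 0.11 and -0.29 ± 0.14. Atp2a2, the calcium pump of the sarcoplasmic reticulum, was at -0.12 ± 0.07. The sarcomere median was -0.04 without cKO TAC array 2 and without cKO sham array 1, and the calcium median was -0.06 without cKO TAC array 2.

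Signalling, tetraspanin and lysosome lists had medians of under 0.1, with more members above 0 than the 51.0% of all genes. Of 35 TGF-beta and BMP genes (37 listed) 22 were above 0, with a median of 0.05, and 2 were higher without overlap, Smad6 and Smad3, against 2.03% of all genes. Smad6, an inhibitor of BMP signalling, read 6.45, 6.63, 6.29 and 6.50 after TAC and 6.16 to 6.21 after sham (0.28 ± 0.08), and Smad3, which transmits TGF-beta signals, was at 0.17 ± 0.07. Tgfbr2 and Bmp4 were at 0.35 ± 0.14 and 0.40 ± 0.17. Of 22 tetraspanins (26 listed) 15 were above 0, with a median of 0.08, and 3 were higher without overlap, Tspan4, Cd37 and Tspan13, against 2.03% of all genes. Tspan13 had values of 9.55 to 9.69 after TAC and 8.79 to 9.32 after sham. That list was drawn up because Tspan4 had stood out in these data, so its count is no independent evidence. Of 44 autophagy and lysosome genes (46 listed) 28 were above 0, with a median of 0.03. Without overlap, 2 were higher and 1 lower, against 2.03% and 2.17% of all genes. The protease genes Ctsa and Lgmn were at 0.17 ± 0.07 and 0.20 ± 0.09 without overlap. Leaving out 1 cKO array moved the first median between -0.01 and 0.08, the second between 0.03 and 0.15 and the third between 0.02 and 0.06.

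The 8 genes with the smallest p for a difference of the TAC effect between genotypes lay between -0.36 and 0.14 in cKO hearts. In 3 of them, Ogfod3, Cryzl2 and Trmt11, every TAC array was below every sham array, against 2.17% of all genes. The p that picked them draws on the cKO difference itself, so this count is no independent evidence. For Ogfod3 the difference between genotypes was -0.46 ± 0.10 (limma unadjusted p 0.000196, adjusted p 1.0), from -0.28 ± 0.07 in cKO and 0.18 ± 0.07 in control hearts. It read 5.49, 5.58, 5.47 and 5.56 after TAC and 5.73, 5.81, 5.86 and 5.82 after sham in cKO hearts. Control hearts read 5.77 to 6.00 after TAC and 5.63 to 5.74 after sham, so the groups were apart in both genotypes and in opposite order. Cope, a coat protein of Golgi vesicles, and Usf1, an E-box-binding transcription factor, were at -0.06 ± 0.06 and -0.12 ± 0.09 in cKO hearts and at 0.31 ± 0.06 and 0.40 ± 0.09 in control hearts. Cryzl2 and Trmt11 were lower in every cKO TAC heart, at -0.36 ± 0.13 and -0.25 ± 0.09, and were at 0.36 ± 0.13 and 0.20 ± 0.09 in control hearts. Trmt11 read only 4.49 to 4.84 in cKO hearts, near the filter of 4.37. Arsa, Adamts15 and Lrrc71 overlapped in cKO hearts, at -0.20 ± 0.10, -0.11 ± 0.10 and 0.14 ± 0.08. Across the 21333 probe sets 790 (3.7%) had an unadjusted interaction p under 0.05.

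**Figure D5:**
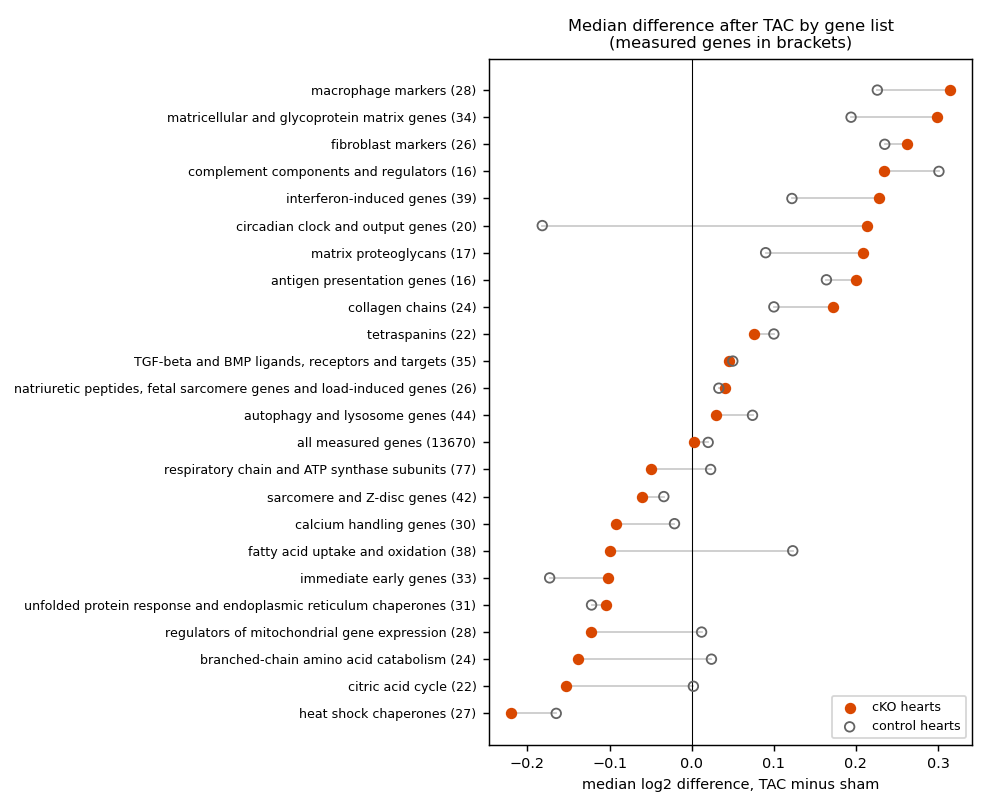
Median log2 difference, TAC minus sham, for 23 gene lists and for all 13670 genes in cKO hearts (filled) and control hearts (open), with the number of measured genes in brackets. The clock list lies at 0.21 in cKO and -0.18 in control hearts, the fatty acid list at -0.10 and 0.12, and the macrophage list at 0.32 and 0.23.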

How the data were processed

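Per the labels' protocols, total RNA of 1 heart per array was extracted with a fibrous tissue kit and biotin-labelled for Affymetrix arrays. The authors deposited log2 values of 35556 probe sets on 16 arrays. MAS5 is named in the submitters' processing notes, and the sources used here do not give the normalization. The log base was read from the values (2.34 to 14.35 in cKO hearts), and any scaling between arrays would remove a shift shared by all genes. Groups came from sample titles, 4 mice each, and the labels give no batch. No array was a copy of another, since any 2 arrays differed in at least 97.4% of probe sets. Arrays carry no read depth, and 4 hearts per group limit the precision.

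Genes were named from the platform annotation (21789 probe sets with 1 symbol, 1621 with several, 12146 unlisted), and 21698 were found by Entrez ID among RefSeq genes of the GRCm38.p6 build. Probe sets with a mean above the 40th percentile (4.37) were tested, 21333 in all. Per gene the probe set of highest mean over the 16 arrays was kept. Tests used limma 3.58.1 in R 4.3.3, with 4 group means on all 16 arrays, a mean-variance trend, two-sided p-values and Benjamini-Hochberg adjustment at 0.05. The code was tested on simulated data. Figures used matplotlib 3.10.9.

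Named were key genes, the 15 genes of smallest p per direction without overlap, the 8 largest differences per direction with unadjusted p under 0.05, up to 5 members per described list plus members whose role is explained, and the 8 genes of smallest interaction p. Some further list members were named after their values were seen. The genes and lists, and which lists are described, were chosen with earlier results of these data known, so counts over lists are descriptions with no test. Some lists share members, so their counts are not separate results. C1qa and C1qb are on the macrophage and complement lists, and Sdha and Sdhc on the citric acid cycle and respiratory chain lists. The replicate numbers were not used to pair the hearts in the main test. Same-numbered cKO arrays correlated at 0.0159, 0.144, -0.00802 and 0.193 in their deviations from the group means. Arrays of unlike number were not compared in this way, so these values cannot tell whether the numbers pair hearts. Alternatives were another normalization, filter, model or weighting, the replicate number as a block, and leaving out each array. A pair of settings was chosen after seeing the data: arrays whose Myl7 exceeds 6 left out, or sham arrays whose Atf3 exceeds 8 left out. In cKO hearts the first dropped TAC arrays 1 and 2 and sham array 2, and the second dropped sham array 1.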

Additional observations from a re-analysis of the deposited data

Results flagged for a closer look

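Within each group of 4 cKO hearts, 390 groups of values were screened for a heart far from the others, measured as its gap to the nearest heart over the range of the group. The screen picks about 1 in 20 groups by chance, and it picked 18 of the 390. Sham heart 1 stood apart for Acadm (12.15), Hsph1 (9.02), Nppb (11.85), Rcan1 (10.55), Sparcl1 (10.75), Tspan13 (8.79) and the heat shock list mean (9.66, against 9.13 to 9.19 in the others). TAC heart 2 stood apart for Arhgap32 (7.29), Atp5a1 (12.25), Ckb (9.55), Gsta3 (5.91) and the list mean of mitochondrial regulators (7.91, against 8.14 to 8.18). Sham heart 2 did so for Hsd17b7 (7.10), Lgmn (8.71), Lrrc71 (4.79) and Myl7 (8.46, against 4.63 to 5.20). The remaining values were B2m in sham heart 4 (11.11) and Dusp1 in TAC heart 3 (8.64).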

How the results depend on the processing

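Counts of called probe sets stayed near 0. For TAC against sham in cKO hearts, limma called 0 in every setting run except 2 (as reported above, 1447 were under an unadjusted p of 0.05). It called 1 with only the arrays of the groups compared (adjusted p 0.0466) and without control sham replicate 1 (adjusted p 0.00885). That probe set has no gene listed, and leaving out each array in turn gave 0 to 1. For control hearts the count was 5 with no filter on low values, 1 with only the groups compared, 1 without the sham arrays with Atf3 above 8, and 0 to 2 when each array was left out, 2 without cKO sham replicate 4. The difference between genotypes gave 0 under every setting run. With the replicate number as a block, all 3 counts were 0, and the block changed no call. Quantile normalization and median centring turned no named gene and none of the lists described.

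Of named gene values, 4807 kept their sign and 24 turned. Without the arrays with Myl7 above 6, the turned differences were Ankrd1 -0.057, Lox -0.41, Myl7 -0.39, Tgfb2 -0.078, Timp1 -0.280 and Zbtb17 0.03. Without the sham arrays with Atf3 above 8 they were Ccn2 0.26, Csrp3 0.006, Myl7 -0.12 and Nppb 0.11, and with array weights Myl7 was -0.30. When each array was left out, ranges that crossed 0 were Ccn2 -0.55 to 0.26, Csrp3 -0.070 to 0.013, Myh7 -0.073 to 0.61, Myl7 -0.76 to 1.08, Nppb -0.32 to 0.26 and Zbtb17 -0.04 to 0.01. Apart from fewer arrays, the cause was not tested.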
